A study of Homo sapiens with 8 samples.

Results

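Fibronectin, the laminin chains and the integrin chains were examined in UM-RC-2 cells, an established line of clear cell renal cell carcinoma that carries a VHL mutation per the labels. The genes are defined by their names, and this set was chosen with earlier results of these data known, including the rise of FN1. They are FN1, all symbols of laminin alpha, beta and gamma chains, and all symbols of integrin alpha and beta chains in the count tables. This gave 39 genes of 43682 symbols, made up of 1 fibronectin gene, 12 laminin, 18 integrin alpha and 8 integrin beta genes. The cells stably carried either VHL or a construct that the labels name VEC, both introduced with lentivirus and both selected in 10 µg/ml blasticidin. RNA-seq was done on 2 VEC and 2 VHL libraries, numbered replicate 1 and replicate 2. Both replicate 1 libraries are labelled total RNA and both replicate 2 libraries polyA RNA, and they are called here the total RNA pair and the polyA pair. Whether the libraries came from separate cultures, and whether the cells were a clone or a pool, is not stated. The spread that the p-values measure may therefore be technical.

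Fibronectin is a secreted dimer that cells assemble into extracellular fibrils by pulling on it through integrins. Laminins are trimers of an alpha, a beta and a gamma chain and form the polymer on which basement membranes are built, including those of kidney tubules and glomeruli. Integrins are receptors of 1 alpha and 1 beta chain that join these matrices to the actin cytoskeleton. VHL is the substrate receptor of a ubiquitin ligase that targets hypoxia-inducible factors for degradation. It is also known to bind fibronectin and to support the assembly of its matrix.

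The libraries held between 16230291 and 50027348 counts, and the 39 genes took between 0.153% and 0.359% of them. Levels are given as CPM, counts scaled to the size of the library and not to the length of the gene. The VHL transcript was at 37.1 CPM (VEC) and 146 CPM (VHL) in the total RNA pair and at 88.9 and 151 CPM in the polyA pair. Libraries separated by replicate number. On the log2(CPM + 1) scale, Pearson's r over 21673 genes was 0.991 and 0.978 within the pairs but 0.502 for VEC against VEC and 0.531 for VHL against VHL. Each change is therefore given within each replicate pair and from 1 model over all genes with the replicate number as a blocking term (the blocked fit). Its p-values rest mostly on a spread between the pairs that is shared over genes. They say little about how the change of 1 gene varied between the pairs. LAMA5 changed by 0.51 and -0.53 on the log2 scale and had a standard error of 0.25. That of ITGAE, with changes of -0.28 and -0.27, was also 0.25. The p-values do not measure the spread between libraries of the same group. The labelled cell type was checked on markers. Of 9 renal carcinoma and epithelial markers, PAX8, CDH6, KRT8, KRT18, VIM and CDH2 were each above 13 CPM in all libraries, and PAX2 lay between 1.18 and 9.28 CPM. CA9, a target of hypoxia-inducible factors, was lower in VHL, while 7 of 8 fibroblast markers and 6 of 7 leukocyte markers had at most 20 counts in each library. Of 5 endothelial markers, 4 had at most 20 counts in each library, while EMCN had 0 counts in both total RNA libraries and 1133 (VEC) and 1878 (VHL) in the polyA pair.

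The stretches before the annotated starts of 4 genes are shown because these were the members whose change passed the test in at least 1 fit. The sequences are from RefSeq on GRCh38.p14, 250 bases each, read 5′ to 3′ on the strand of the gene. Capitals mark matches to any of 4 motifs on either strand: the core of the hypoxia-response element (ACGTG or GCGTG), the cyclic AMP response element (TGACGTCA), the GC box (GGGCGG) and the CCAAT box (CCAAT). FN1 lies on the minus strand with its stretch at chr2:215436069-215436318, ITGB8 on the plus strand at chr7:20330650-20330899, ITGA5 on the minus strand at chr12:54419267-54419516 and LAMB2 on the minus strand at chr3:49133051-49133300.
FN1: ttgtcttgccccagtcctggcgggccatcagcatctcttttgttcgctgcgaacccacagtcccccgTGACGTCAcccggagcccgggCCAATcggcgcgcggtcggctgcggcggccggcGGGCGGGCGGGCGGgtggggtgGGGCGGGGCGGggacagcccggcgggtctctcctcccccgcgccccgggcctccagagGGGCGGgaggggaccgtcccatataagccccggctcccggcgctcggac
ITGB8: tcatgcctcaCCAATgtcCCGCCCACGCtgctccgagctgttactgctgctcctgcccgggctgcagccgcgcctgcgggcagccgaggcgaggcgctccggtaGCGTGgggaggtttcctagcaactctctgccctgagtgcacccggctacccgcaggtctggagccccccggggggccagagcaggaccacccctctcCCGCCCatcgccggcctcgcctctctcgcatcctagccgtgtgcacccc
ITGA5: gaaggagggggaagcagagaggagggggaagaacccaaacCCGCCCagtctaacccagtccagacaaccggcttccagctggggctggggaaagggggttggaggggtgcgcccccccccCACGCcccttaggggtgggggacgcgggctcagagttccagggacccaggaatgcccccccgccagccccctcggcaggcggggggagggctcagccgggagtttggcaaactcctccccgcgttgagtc
LAMB2: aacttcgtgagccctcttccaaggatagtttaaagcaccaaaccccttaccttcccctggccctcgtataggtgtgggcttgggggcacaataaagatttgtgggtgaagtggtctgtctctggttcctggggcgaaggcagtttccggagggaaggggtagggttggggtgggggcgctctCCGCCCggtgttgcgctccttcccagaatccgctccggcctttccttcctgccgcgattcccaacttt

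FN1 held 1 cyclic AMP response element, which ended 176 bases before the start, 1 CCAAT box and 6 GC boxes that overlap in part. Over 35116 promoter stretches of the same length, 1.65% held the cyclic AMP response element, and FN1 was the 1 member among the 27 with a promoter entry that held it. ITGB8 held 2 hypoxia-response cores, 1 of which overlaps a GC box by 1 base, and ITGA5 held 1. This core was present in 43.2% of all stretches and in 9 of the 27 members. LAMB2 held 1 GC box, a motif found in 42.6% of all stretches. The CCAAT box was present in 32% of all stretches, and FN1 and ITGB8 were among the 6 members that held it. A match is a description of the letters and not a binding site.

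FN1, the gene of fibronectin, rose. In the total RNA pair it was at 153 CPM (VEC) and 765 CPM (VHL), and in the polyA pair at 108 CPM (VEC) and 510 CPM (VHL). Both VHL libraries were above both VEC libraries, and the groups did not overlap. The underlying counts were 3532 and 14264 for total RNA, then 4945 and 20814 for polyA RNA. Within-pair log2 changes of 2.33 (total RNA) and 2.23 (polyA) were close in size in spite of the distance between the pairs. The blocked fit gave a log2 change of 2.28 ± 0.26 (SE, n = 2 per group), or 4.85-fold (adjusted p = 5.54e-15, edgeR's quasi-likelihood test). FN1 had the smallest p-value of the 183 genes called higher and ranked 24 by p-value among all 24417 genes tested. Its gain of 612 CPM in the total RNA pair ranked 3 among the genes called higher, and that of 401 CPM in the polyA pair ranked 6. With group as the only term, the log2 change was 2.29 ± 0.52 and was not called (edgeR adjusted p = 0.999991). FN1 was the 1 member with an unadjusted p under 0.05 in that fit, in which 0 of 24417 genes were called and 22 had an unadjusted p under 0.05. In bulk RNA, a change in the number of cells that express a gene and a change in its RNA per cell cannot be told apart.

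**Figure D1:**
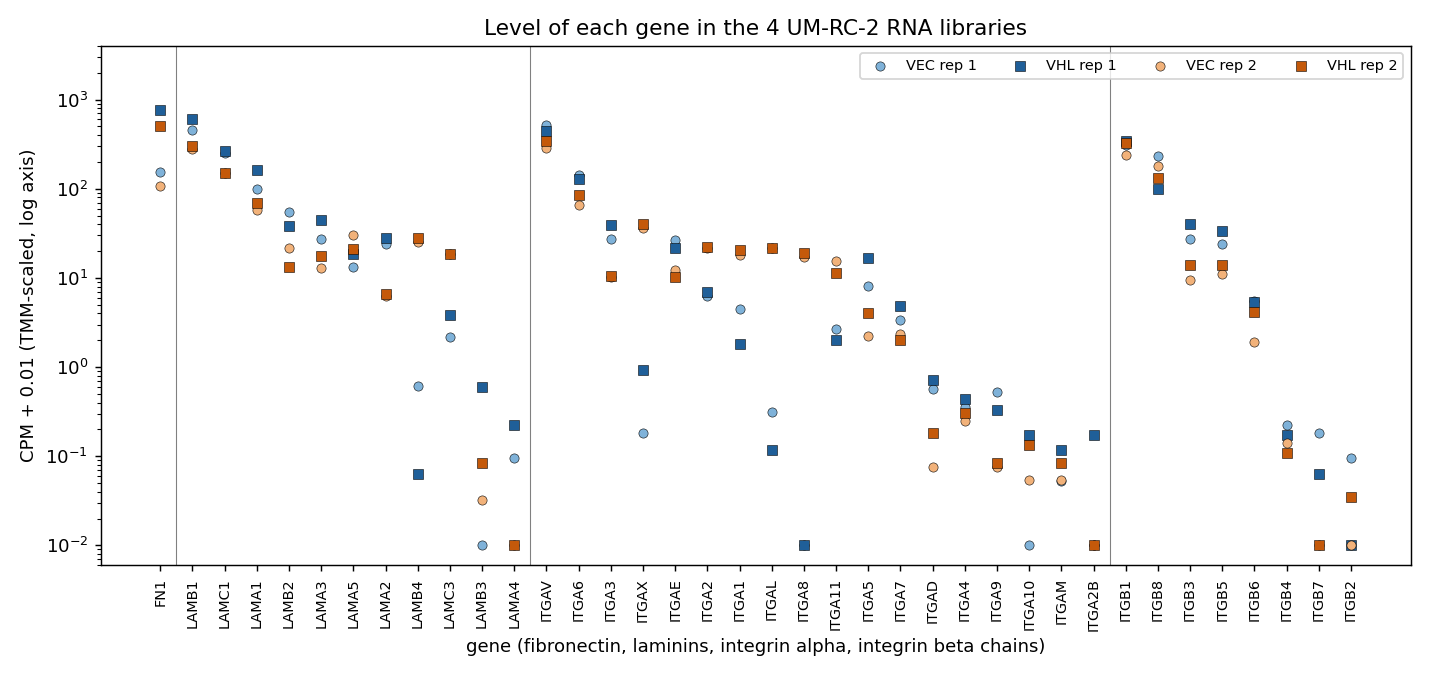
Level of 38 of the genes in CPM + 0.01 (vertical log axis) by gene (horizontal axis), with 1 point per library: circles are VEC, squares are VHL, blue is replicate 1 and orange is replicate 2. The squares of FN1, at 765 and 510 CPM, lie above its circles, at 153 and 108 CPM, while genes such as ITGAL, ITGAX and ITGA8 differ by colour far more than by shape.

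The receptors that bind fibronectin through its RGD site were read next. ITGA5 encodes the alpha chain of the main fibronectin receptor, which pairs with the beta 1 chain. ITGA5 was at 8.08 CPM (VEC) and 16.5 CPM (VHL) in the total RNA pair, and at 2.24 and 4.01 CPM in the polyA pair. It was higher in VHL in both pairs, while the groups overlapped because the VEC library of total RNA was above the VHL library of polyA RNA. The log2 changes were 1.03 and 0.83, and the blocked fit gave 0.94 ± 0.32, which was not called (edgeR adjusted p = 0.0843). It was called when 20 counts were required in every library (adjusted p = 0.0148, edgeR) and when protein-coding genes alone were tested (adjusted p = 0.0375, edgeR).

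ITGB1, the beta chain shared by most matrix receptors, was at 310 CPM (VEC) and 344 CPM (VHL) in the total RNA pair and at 240 and 323 CPM in the polyA pair. Its blocked log2 change was 0.29 ± 0.25 and was not called (edgeR adjusted p = 0.770). ITGAV, the alpha chain that pairs with beta 1, 3, 5, 6 or 8 in receptors of RGD ligands, was at 521 and 447 CPM in total RNA and at 286 and 340 CPM in polyA RNA. The pairs thus went in opposite directions, by -0.22 and 0.25 on the log2 scale, and the blocked value was 0.01 ± 0.25 (edgeR adjusted p = 0.998).

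ITGB8 was the integrin gene that fell. It encodes the beta 8 chain, which pairs with the alpha V chain in a receptor that is known to activate latent TGF-beta. ITGB8 was at 232 CPM (VEC) and 98.8 CPM (VHL) in the total RNA pair, and at 178 CPM (VEC) and 133 CPM (VHL) in the polyA pair. Both VHL libraries were below both VEC libraries. The blocked fit gave a log2 change of -0.83 ± 0.23 (SE, n = 2 per group), or 1.77-fold lower in VHL, with an adjusted p of 0.0169 (edgeR), and adjusted p-values lay between 0.000109 and 0.0349 over the 5 other blocked fits. The size depended on the pair, at -1.23 for total RNA and -0.43 for polyA RNA. With group as the only term it was -0.83 ± 0.46 and was not called (edgeR adjusted p = 0.999991). Among the 573 genes called lower, ITGB8 ranked 405 by p-value. An antisense gene, ITGB8-AS1, had 52 counts (VEC) and 22 (VHL) for total RNA and 26 and 9 for polyA RNA. ITGB8 itself had 5368 (VEC) and 1844 (VHL) counts for total RNA and 8126 and 5418 for polyA RNA. Because no source states whether counting used strand, reads of the antisense gene and those of ITGB8 cannot be told apart.

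The other partners of the alpha V chain did not pass the test. ITGB3 was at 27.4 and 40.5 CPM (VEC and VHL) in total RNA and at 9.54 and 13.8 CPM in polyA RNA, with log2 changes of 0.56 and 0.53 and a blocked value of 0.55 ± 0.24 (edgeR adjusted p = 0.258). ITGB5 was at 24.1 and 33.7 CPM and at 10.9 and 14.1 CPM, with a blocked value of 0.42 ± 0.24 (edgeR adjusted p = 0.507). ITGB6, the epithelial partner, was at 5.53 and 5.31 CPM in total RNA and at 1.89 and 4.14 CPM in polyA RNA, so its change of 1.11 in the polyA pair had no counterpart in the other. Both ITGB3 and ITGB5 were higher in VHL within each pair, opposite in sign to ITGB8. The differences between these beta chains were not tested.

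**Figure D2:**
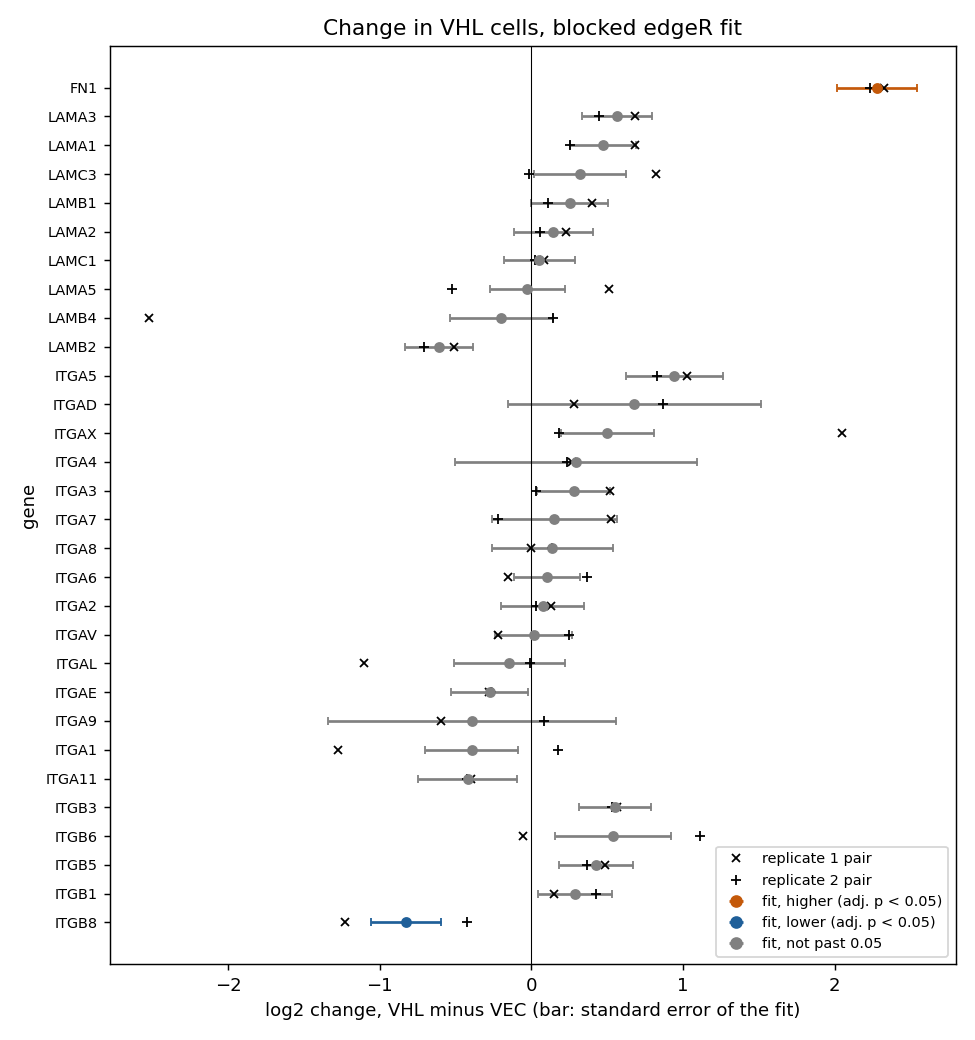
Log2 change of VHL minus VEC (horizontal axis) for 30 tested genes (vertical axis), as the blocked edgeR estimate with its standard error (circle and bar) and as the change within the replicate 1 pair (x) and the replicate 2 pair (+). FN1 at 2.28 is coloured as higher and ITGB8 at -0.83 as lower, and the other 28 genes drawn did not pass the threshold.

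Of the 39 genes, 31 passed the filter on low counts and were tested. In the blocked fit 1 was called higher (FN1) and 1 lower (ITGB8), at an adjusted p under 0.05 over all genes tested. That is 6.45% of the tested members, against 3.1% of all 24417 genes tested, 0.749% higher and 2.35% lower. When protein-coding genes alone were tested, 7.15% of 13897 were called, 2.53% higher and 4.62% lower, and 4 members were called, which added ITGA5 and LAMB2. These shares rest on 2 and 4 members, and nothing about the families as a whole is read from them. The median log2 change was 0.15 over the 31 tested members and -0.03 over all genes tested. Over the protein-coding genes among those tested it was 0.009.

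The 3 chains of laminin-111, the trimer of embryonic and renal tubular basement membranes, were each at 57.8 CPM or more in all libraries. LAMB1 was at 458 CPM (VEC) and 603 CPM (VHL) in the total RNA pair, and at 278 and 300 CPM in the polyA pair. LAMC1 was at 252 and 267 CPM in total RNA and at 150 and 152 CPM in polyA RNA. Both had higher values in VHL within each pair, and neither was called, with blocked log2 changes of 0.25 ± 0.25 and 0.05 ± 0.23 (edgeR adjusted p = 0.839 and 0.990). LAMA1, the alpha 1 chain, was at 100 and 162 CPM and at 57.8 and 69.0 CPM. Its changes of 0.69 and 0.26 gave a blocked value of 0.47 ± 0.22 (edgeR adjusted p = 0.310).

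LAMB2, the beta 2 chain of mature glomerular and neuromuscular basement membranes, was the laminin gene, of the 8 with at least 20 counts in every library, with lower values in VHL within both pairs. It was at 54.9 and 38.5 CPM in total RNA and at 21.9 and 13.4 CPM in polyA RNA. The log2 changes were -0.51 and -0.71, and the blocked fit gave -0.61 ± 0.22, which was not called (edgeR adjusted p = 0.125). LAMB2 was called when 20 counts were required in every library (adjusted p = 0.0340, edgeR), when protein-coding genes alone were tested (adjusted p = 0.0380, edgeR) and in the blocked Wald test of DESeq2 (adjusted p = 0.0236).

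LAMA3, the alpha 3 chain of epithelial laminin-332, was at 27.5 and 44.1 CPM in total RNA and at 13.1 and 17.8 CPM in polyA RNA, with a blocked change of 0.56 ± 0.23 (edgeR adjusted p = 0.213). LAMB3, its beta partner in that trimer, had 0 counts (VEC) and 11 (VHL) in total RNA, and 1 and 3 in polyA RNA. LAMA2, the alpha chain of muscle laminin, was at 23.9 and 28.0 CPM and at 6.27 and 6.51 CPM, with a blocked change of 0.14 ± 0.26 (edgeR adjusted p = 0.953). LAMA4, an endothelial and mesenchymal chain, had at most 4 counts in each library.

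LAMA5, the alpha chain of laminin-511 in adult epithelial basement membranes, had changes of opposite sign in the pairs. It was at 13.1 CPM (VEC) and 18.7 CPM (VHL) in the total RNA pair, but at 30.5 CPM (VEC) and 21.2 CPM (VHL) in the polyA pair. The blocked value was -0.03 ± 0.25 (edgeR adjusted p = 0.996). Its antisense gene LAMA5-AS1 had at most 18 counts in each library.

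The laminin-binding integrins showed no called change. ITGA6, the alpha chain of epithelial laminin receptors, was at 143 and 128 CPM in total RNA and at 65.6 and 84.4 CPM in polyA RNA, with a blocked value of 0.10 ± 0.22 (edgeR adjusted p = 0.960). ITGA3 was at 27.2 and 39.0 CPM and at 10.2 and 10.4 CPM, with 0.28 ± 0.24 (edgeR adjusted p = 0.783). ITGA7, the laminin receptor of muscle, was between 2.01 and 4.88 CPM. ITGB4, the hemidesmosome chain that pairs with alpha 6 alone, had between 3 and 6 counts in each library and was not tested.

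The 4 collagen-binding alpha chains had no call. In the total RNA pair ITGA1 had 104 counts (VEC) and 34 (VHL), but it was at 824 and 835 counts in polyA RNA, so that its log2 changes were -1.27 and 0.18. ITGA11 was lower in VHL within both pairs, by -0.40 and -0.43 on the log2 scale (blocked -0.42 ± 0.33, edgeR adjusted p = 0.721). ITGA2 changed by 0.13 and 0.03. ITGA10 had at most 5 counts in each library. ITGA1, ITGA2 and ITGA11 were 6.10, 3.31 and 5.78 times as high in CPM in polyA RNA as in total RNA. Of the 23 members with at least 20 counts in every library, 18 were lower in polyA RNA, and the other 5 were these 3 genes, LAMA5 and LAMC3.

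**Figure D3:**
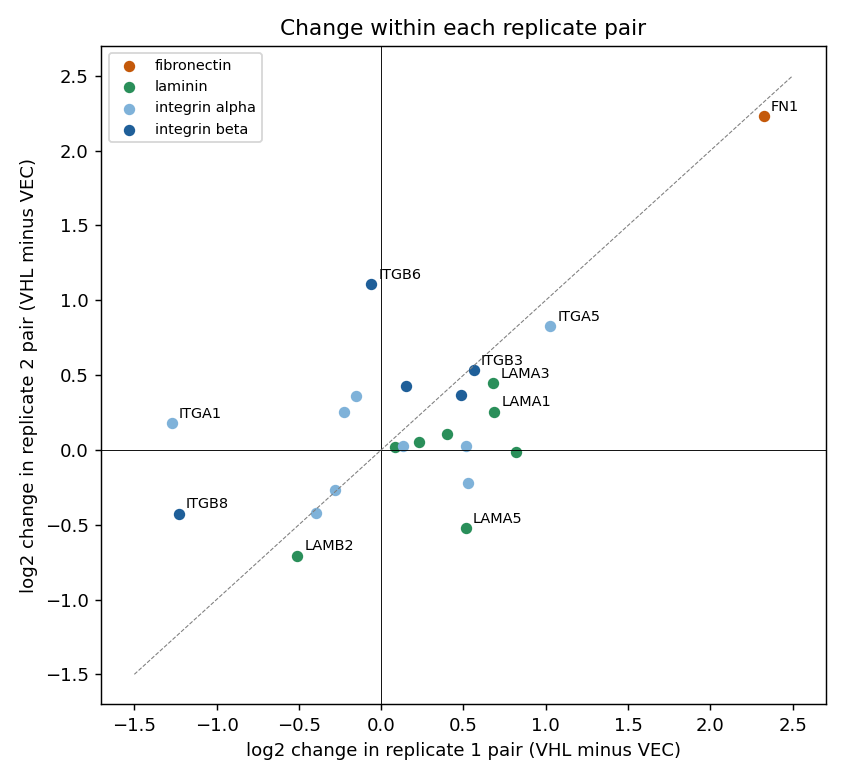
Log2 change of VHL minus VEC in the replicate 1 pair (horizontal axis) and the replicate 2 pair (vertical axis) for the 23 members with at least 20 counts in every library, coloured by family, with equality as a dashed line. FN1 lies at 2.33 and 2.23, ITGB8 at -1.23 and -0.43, and 7 genes, LAMA5 and ITGA1 among them, lie in the quadrants of opposite sign.

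Directions within the pairs were counted over the 23 members with at least 20 counts in every library. Of these, 12 were higher in VHL in both pairs, 4 were lower in both and 7 had opposite signs. The 4 lower in both were ITGB8, LAMB2, ITGAE and ITGA11. Over all 12141 genes with such counts, 31.8% were higher in both pairs and 31.4% lower in both. The members' shares were 52.2% and 17.4%. The members' median change was 0.23 in the total RNA pair and 0.11 in the polyA pair, against -0.04 and 0.06 over those 12141 genes. Among the laminins 5 of 8 were higher in both pairs, among the beta chains 3 of 5 and among the alpha chains 3 of 9. These are descriptions of 2 pairs, and nothing particular to the list is read from them.

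ITGAL and ITGAX, integrin genes known from blood cells, had many counts in the polyA pair and few in the total RNA pair, whereas ITGAM, ITGAD, ITGB2, ITGB7, ITGA2B and ITGA4 had at most 13 counts in each library. ITGAL, the alpha chain of the leukocyte receptor LFA-1, had 7 and 2 counts (VEC and VHL) in total RNA and 996 and 884 in polyA RNA. ITGAX, the CD11c chain of dendritic cells and macrophages, had 4 and 17 counts in total RNA and 1634 and 1659 in polyA RNA. ITGB2, the beta chain with which both of these pair, had at most 2 counts in each library. The leukocyte marker list summed to between 0.482 and 1.96 CPM, with CD3E at 0 in all libraries and PTPRC (CD45) at 0 in both total RNA libraries and at 72 and 63 counts in the polyA pair. The part of leukocyte RNA in the ITGAL and ITGAX counts was not tested.

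The same split was seen for members of other kinds. ITGA8, a chain of kidney mesenchyme and mesangial cells, had 0 and 0 counts in total RNA and 784 and 772 in polyA RNA. LAMB4 had 14 and 1 counts in total RNA and 1149 and 1138 in polyA RNA. Within polyA RNA the VEC and VHL values of ITGAL, ITGAX, ITGA8 and LAMB4 were close, with log2 changes between -0.01 and 0.18. Over all symbols, 6224 had at most 20 counts in both total RNA libraries and at least 100 in both polyA libraries. Pseudogenes took 31.3% and 25% of the polyA counts against 1.4% and 2.09% in total RNA. The labelled RNA type cannot be told apart from anything else that differed between the replicate numbers.

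**Figure D4:**
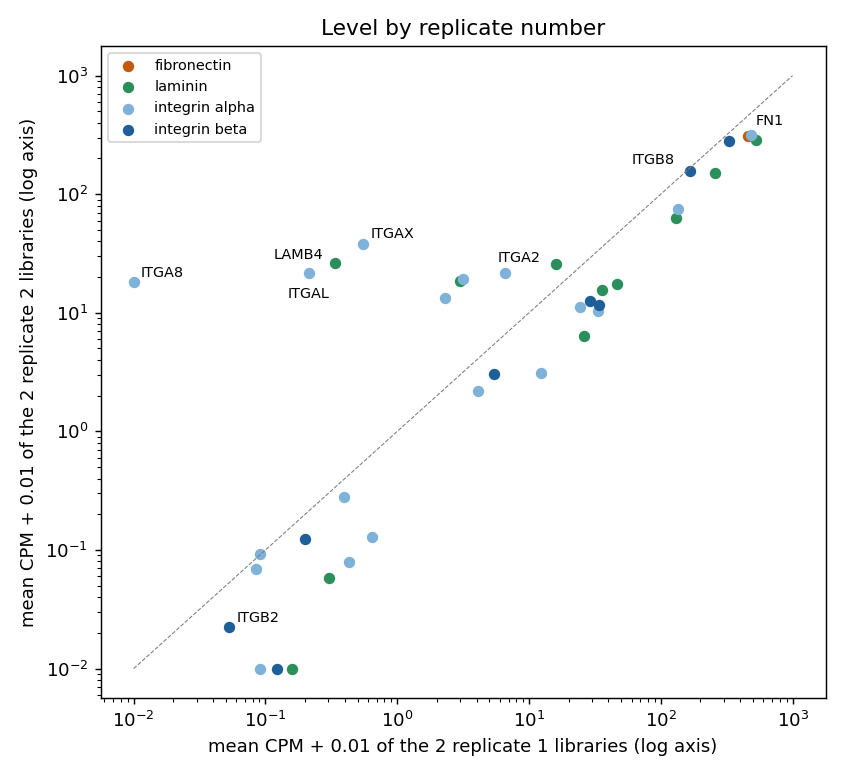
Mean CPM + 0.01 of the VEC and VHL libraries of replicate 2 (vertical log axis) against that of replicate 1 (horizontal log axis) for 38 of the genes, coloured by family, with equality as a dashed line. ITGA8, ITGAL, LAMB4 and ITGAX stand far above the line, while FN1 and ITGB8 lie near it and ITGB2 is low in both.

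Of the 39 members, 11 had at most 20 counts in each library, and 8 of these were not tested: ITGA10, ITGA2B, ITGAM, ITGB2, ITGB4, ITGB7, LAMA4 and LAMB3. ITGA4, ITGA9 and ITGAD were tested at this level and not called (edgeR adjusted p between 0.895 and 0.977). ITGA2B, the platelet chain, had 3 counts in 1 library and 0 in the others, and of 4 megakaryocyte markers PF4, PPBP and GP9 were at 0 in all libraries and GP1BA had between 9 and 21 counts. ITGAE, the alpha chain that binds E-cadherin, was at 26.7 and 21.9 CPM and at 12.2 and 10.2 CPM, with a blocked change of -0.28 ± 0.25 (edgeR adjusted p = 0.800). LAMC3 was at 2.16 and 3.86 CPM in total RNA and at 18.8 and 18.5 CPM in polyA RNA.

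Other genes of the pathway were read from 4 lists. Of 47 matrix proteins that bind fibronectin, laminins or integrins, 30 were tested, with 0 called higher and 4 lower and a median log2 change of 0.08. TGFBI, a secreted adhesion protein that binds integrins, fell from 250 to 109 CPM for total RNA and from 95.9 to 33.2 CPM for polyA RNA (blocked -1.36 ± 0.23, edgeR adjusted p = 4.40e-07). COL4A3 and COL4A4, the type IV collagen chains of the glomerular basement membrane, fell by 1.72 ± 0.30 and 1.46 ± 0.26 on the log2 scale (edgeR adjusted p = 1.54e-06 and 5.08e-06). THBS3, a thrombospondin, changed by -1.35 ± 0.32 (edgeR adjusted p = 0.00190). The share called was 13.3%, against 3.1% of all genes tested. With protein-coding genes alone, 0 of 29 listed genes were called higher and 5 lower. Of all genes in that fit, 2.53% were called higher and 4.62% lower, or 7.15% in either direction. The shares of these lists rest on few genes, and nothing about a list as a whole is read from them. Of the listed genes with higher values in VHL, 2 had an unadjusted p under 0.05 in edgeR, and DESeq2 called 0 higher.

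Among 23 membrane proteins that bind matrix or associate with integrins, 21 were tested, 3 were called higher and 1 lower (19%, against 3.1% of all genes tested), with a median log2 change of -0.09. The number called higher was 2 with DESeq2 size factors and 2 without the filter on low counts. With protein-coding genes alone, 3 of 21 were called higher and 1 lower, against 2.53% higher and 4.62% lower over all genes in that fit. CD44, the hyaluronan receptor, rose from 9.85 to 20.6 CPM for total RNA and from 21.6 to 41.3 CPM for polyA RNA (blocked 1.00 ± 0.24, edgeR adjusted p = 0.00267). GPC1, a glypican, rose by 1.06 ± 0.24 on the log2 scale (edgeR adjusted p = 0.000884) and SDC3, a syndecan, by 0.83 ± 0.26 (edgeR adjusted p = 0.0496, close to the threshold). LGALS1, the galectin-1 gene, fell by 0.70 ± 0.21 (edgeR adjusted p = 0.0382).

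Of 52 genes for the cytoplasmic side of the integrin adhesion, 49 were tested, with 0 higher and 2 lower (4.08%, against 3.1% of all genes tested) and a median log2 change of 0.01. Of those with higher values, 6 had an unadjusted p under 0.05 in edgeR. DESeq2 called 3 of them higher, and 478 of all 24417 genes. With protein-coding genes alone, 3 of 49 were called higher and 2 lower, against 2.53% higher and 4.62% lower over all genes in that fit. ARHGEF6, an exchange factor for Rac and Cdc42 that binds parvin, fell by 1.42 ± 0.26 on the log2 scale (edgeR adjusted p = 5.66e-06), and TES, the testin gene, by 0.83 ± 0.21 (edgeR adjusted p = 0.00684). TLN1 (talin), PTK2 (focal adhesion kinase) and ILK changed by -0.13, 0.28 and -0.44 and were not called. Of 12 cell-surface ligands of integrins, such as the ICAM proteins and VCAM1, 9 were tested. In edgeR 0 of them were called, against 3.1% of all genes tested, and 0 had an unadjusted p under 0.05. DESeq2 also called 0. With 9 genes tested, 0 calls say little about these ligands.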

How the data were processed

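The authors' deposited values were raw counts per gene symbol from alignments to hg19 per the file headers, 1 table per library. The submitters' processing notes name featureCounts and HOMER. The aligner, the gene models, strandedness and how multi-mapping reads were handled are not given in the sources used here. The H3K27ac tables name regions without positions and were not used.

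The tests used edgeR 4.0.16 in R 4.3.3 (filterByExpr, TMM, quasi-likelihood F test, two-sided, Benjamini-Hochberg over 24417 genes, calls at adjusted p under 0.05). DESeq2 1.42.0 was an alternative. CPM used TMM-scaled library sizes, pair changes a prior count of 2, and standard errors are the log2 change over the square root of F. Replicate number was a blocking term, because the comparison asked for was within each number and the labels give another RNA type for each. Deviations from group means correlated at 0.983 between same-numbered libraries, over 21673 genes. Counts were simulated for 23914 genes, with 200 changed by 2 on the log2 scale. The blocked fit recovered 189 with 6 false calls and the group-only fit 0 with 0. The counts were drawn with a level for each replicate number and the same change in both pairs, as the blocked fit assumes. Changed genes were taken from those with higher counts, and no smaller change was simulated. The simulation therefore cannot decide which fit suits the data.

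CPM is not scaled by length, so levels were compared between libraries and not between genes. All members were counted, and 1 is not reported here. Values in every library were given for called members and for the 5 members of each family with the highest mean CPM. Of each list, the called genes with the 3 smallest adjusted p-values per direction were named by rule, and THBS3, the 1 other called gene, was named after its values were seen. The members and lists were chosen with earlier results of these data known, including the rise of FN1. RefSeq symbols matched 97.9% of the table's symbols and all 39 members, and promoters 27 of them.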

Additional observations from a re-analysis of the deposited data

Results flagged for a closer look

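LAMA5 changed in opposite directions in the pairs, by 0.513 in replicate 1 (total RNA per the labels) and by -0.525 in replicate 2 (polyA RNA), on the log2 scale of VHL minus VEC. It was picked out because it had at least 20 counts in every library and both changes were at least 0.5 in size with opposite signs. Each change rests on 1 library per group, and the difference between the pairs was not tested.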

How the results depend on the processing

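Without the replicate block, 0 members were called (1 at an unadjusted p under 0.05), FN1 changed by 2.29 (adjusted p = 0.999991, edgeR), and the lists of matrix, adhesion complex and membrane genes had 0 calls in either direction. Members called numbered 2 higher and 2 lower under the filter of 20 counts and with protein-coding genes alone, and 1 higher and 2 lower in DESeq2's blocked Wald test. FN1 and ITGB8 were called in each of the 5 blocked alternatives. Adhesion complex genes called higher numbered 1 with DESeq2 size factors and 1 without a filter, 4 under the filter of 20 counts, 3 in DESeq2 and 3 with protein-coding genes alone, against 0. Membrane genes called lower numbered 0 without a filter. Among members that were never called, ITGAV changed sign to -0.037 without the replicate block, -0.021 with DESeq2 size factors and in DESeq2, and -0.013 with protein-coding genes alone, and without the block LAMB4 went to 0.114. Without replicate 1 or replicate 2, FN1 changed by 2.23 and 2.33 with no test possible, since 1 library per group is left, and no counts of calls can be given. Calls over all genes numbered 756 of 24417 (183 higher) with the block and 0 without it. They numbered 1181 of 12141 (455 higher) under the stricter filter and 1203 of 24417 (478 higher) in DESeq2. With DESeq2 size factors they numbered 999 of 24417 (206 higher), and without a filter 640 of 32804 (123 higher). With protein-coding genes alone they numbered 993 of 13897 (351 higher). Nothing about the members or lists is read from their counts of calls. The median of all genes moved by less than 0.1 under each scaling. Each gene has 1 residual degree of freedom in the blocked fit, and genes with few counts are measured with wide error. ITGA4, with between 8 and 12 counts in each library, had a standard error of 0.80. That of ITGA5, with 102 (VEC) and 164 (VHL) counts in replicate 2, was 0.32.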

Other observations

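ITGA6-AS1, an antisense gene to the integrin alpha 6 gene that was picked after its values were seen, had 37 counts (VEC) and 4 (VHL) in the total RNA pair, and 29 and 2 in the polyA pair. Both VHL libraries were below both VEC libraries. The blocked log2 change was -3.18 ± 0.84 (edgeR adjusted p = 0.00900), while ITGA6 itself changed by 0.10 ± 0.22 (edgeR adjusted p = 0.960). The counts are few, and no source states whether counting used strand, so reads of this gene and of ITGA6 cannot be told apart. The difference between the changes was not tested.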
